A study of Mus musculus with 31 samples.

Results

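The 6 chemokine-system genes described here, which masseter muscle (MM) already carries in vehicle-injected mice, were followed through every group of the series: the ligands Cxcl12, Cxcl14, Ccl11, Ccl6 and Ccl9 and the receptor Cxcr4. They were taken by name, 6 of the 22609 gene symbols in the count tables, and all 6 passed the filter on low counts in every comparison. The data were bulk RNA-seq libraries of left MM from 31 adult male C57BL/6J mice without a genetic modification, aged 2 to 4 months per the study's methods, 1 library per mouse. CFA (complete Freund's adjuvant, an oil emulsion with killed mycobacteria that drives inflammation) gave groups of 3 mice at 1d and at 5d, set against 3 mice of a CFA vehicle group. Collagenase type 2 (Col), which digests extracellular matrix, gave 2 groups of 4 mice at 0.2U, labelled 1C and RPC and without a day in the labels. At 10U it gave 4, 3 and 4 mice labelled 2d, 6d and 12d, and all 5 Col groups were set against 3 mice of a Col vehicle group. The study's text gives 1d and 14d where the labels read 2d and 12d, so the names below follow the labels. For 0.2U it gives 1d and 5d, and the labels do not say which group is which. The vehicle was PBS, and the day on which vehicle mice were collected is not given in the sources used here.

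Chemokines are small secreted proteins that bind G protein-coupled receptors and steer the movement of leukocytes and progenitor cells. Some are made mainly on inflammatory stimulation, whereas others are produced continuously by stromal and tissue-resident cells. CXCL12 is made by fibroblasts and endothelium, signals through CXCR4 to retain and recruit progenitors and leukocytes, and is taken up by the scavenging receptor CXCR7 (ACKR3). CXCL14 is a homeostatic chemokine of epithelium and stroma. CCL11 (eotaxin) attracts eosinophils through CCR3 and can be truncated by the peptidase DPP4. CCL6 and CCL9 are closely related CC chemokines of rodents, made largely by myeloid cells, which act through CCR1.

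The counts are per gene symbol, so exons, UTRs and transcripts of a gene are not told apart, and the positions given are those of GENCODE vM1 gene models on mm9. Cxcl12 (ENSMUSG00000061353) lies at chr6:117118553-117131385 on the plus strand, Cxcl14 (ENSMUSG00000021508) at chr13:56390008-56397912 on the minus strand and Cxcr4 (ENSMUSG00000045382) at chr1:130484776-130488870 on the minus strand. The other 3 share chromosome 11. Ccl11 (ENSMUSG00000020676) occupies chr11:81871325-81876457 on the plus strand, Ccl9 (ENSMUSG00000019122) occupies chr11:83386421-83392138 and Ccl6 (ENSMUSG00000018927) occupies chr11:83401384-83406589, both on the minus strand. Ccl6 and Ccl9 are 9245 bp apart, whereas Ccl11 is 1509963 bp from Ccl9. No annotated gene overlapped the other 5, but E230016K23Rik overlaps Ccl6 on the opposite strand, and it had at most 1.33 CPM in any mouse. Of the 50-base windows in the exons of Ccl9, 1.61% also occur in transcripts of other genes, against 0% for the remaining 5 genes.

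RefSeq promoter sequences (GRCm38.p6, a later build than the one used for the counts) were matched for 5 of the 6 genes. The 250 bases before the transcription start are shown for 4 of them: Ccl6 and Ccl9, which moved together in the mice, and Cxcl12 and Cxcr4, a ligand and its receptor. Capitals mark matches to 5 motifs searched: the letters TATAAA on the strand of the gene only (the core element known as the TATA box), and on both strands TTGCNNAA for C/EBP, TGANTCA for AP-1, GGGCGG for the GC box and AGGAAGT for ETS factors, so that a match on the opposite strand appears as its reverse complement. All are printed 5′ to 3′ on the strand of the gene.
Ccl6, chr11:83593088-83593337, minus strand: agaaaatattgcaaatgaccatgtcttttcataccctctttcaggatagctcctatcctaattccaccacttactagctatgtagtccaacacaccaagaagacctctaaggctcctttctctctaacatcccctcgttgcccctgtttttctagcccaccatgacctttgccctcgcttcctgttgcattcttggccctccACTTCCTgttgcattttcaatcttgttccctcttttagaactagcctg
Ccl9, chr11:83578637-83578886, minus strand: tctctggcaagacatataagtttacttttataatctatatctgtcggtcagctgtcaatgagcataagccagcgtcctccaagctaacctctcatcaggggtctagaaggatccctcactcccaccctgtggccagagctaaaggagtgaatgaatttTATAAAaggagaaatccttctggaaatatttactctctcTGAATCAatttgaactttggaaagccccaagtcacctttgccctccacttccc
Cxcl12, chr6:117168285-117168534, plus strand: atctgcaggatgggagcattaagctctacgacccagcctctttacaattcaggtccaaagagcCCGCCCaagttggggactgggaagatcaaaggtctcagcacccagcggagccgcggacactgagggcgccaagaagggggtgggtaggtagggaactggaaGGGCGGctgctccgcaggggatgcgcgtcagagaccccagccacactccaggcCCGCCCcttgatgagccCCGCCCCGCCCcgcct
Cxcr4, chr1:128592300-128592549, minus strand: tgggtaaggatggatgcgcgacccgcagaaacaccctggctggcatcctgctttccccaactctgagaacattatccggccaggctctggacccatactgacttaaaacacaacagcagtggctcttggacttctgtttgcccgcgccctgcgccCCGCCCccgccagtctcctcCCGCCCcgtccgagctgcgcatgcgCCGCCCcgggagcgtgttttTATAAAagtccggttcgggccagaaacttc
The promoters of Ccl6 and Ccl9 held 2 CpG dinucleotides each, fewer than the median of 6 over all 32851 promoters, with 45.2% and 43.6% G or C. Those of Cxcl12, Cxcl14 and Cxcr4 held 14, 16 and 19 CpG, with 64.4%, 59.6% and 61.2% G or C. The GC box matched 5 times in Cxcl12 and 3 times in Cxcr4, and 32.7% of all promoters held it at least once. The letters TATAAA matched in Cxcr4 at bases -30 to -25 from the start and in Ccl9 further upstream, at -92 to -87 (7.59% of all promoters). The AP-1 pattern matched in Ccl9 as TGAATCA (6.75%), ETS in Ccl6 (7.69%), and C/EBP in none of the 5 (9.56%). The window of Cxcl14 matched none of the 5 motifs. These are letter matches and were not tested for binding.

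Libraries held 14843778 to 29076671 reads on genes. Libraries differed in how reads were assigned. Reads that fell on more than 1 gene were 0.675 to 0.875% of reads in the 11 libraries of 10U Col and 0.147 to 0.317% in the other 20. Every comparison of 10U Col with vehicle therefore crosses this difference, and the 2 cannot be told apart there, whereas comparisons between days of 10U Col lie within it. Reads on no gene were 6.69 to 12.1% in the 9 libraries of the CFA experiment and 17.2 to 21.6% in those of 10U Col, so the comparison of the early changes after the 2 agents crosses this difference too. Skeletal muscle markers were abundant in every mouse, with a mean of at least 11.6 on the log2(CPM + 0.5) scale, but the markers of salivary gland ran from -0.30 to 10.5 and those of bone marrow progenitors and erythroid cells from -0.73 to 3.61 on the same scale. Salivary gland markers were at 9.16 to 9.92 in the CFA 5d mice, 7.60 to 10.5 in 0.2U RPC and -0.30 to 0.03 at 10U 6d, against 0.92 to 7.27 and 1.07 to 9.80 in the CFA and Col vehicle mice. In bulk tissue, fewer cells of a type and less RNA per cell cannot be told apart.

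In vehicle MM the 5 ligands were among the 8 most abundant of 41 chemokine ligands per length of transcript. Mean RPKM (reads scaled by library size and by the length of the merged exons) over the 6 vehicle mice was 36.2 ± 9.36 (SD, n = 6) for Ccl11, 35.1 ± 4.02 for Cxcl12 and 29.8 ± 10.7 for Cxcl14. These were the first 3 ligands in rank, and their ranges overlapped. Ccl6 followed at rank 6 with 8.53 ± 2.5 RPKM and Ccl9 at rank 8 with 4.46 ± 1.66. Among 23 receptors, Cxcr4 had rank 3 with 6.30 ± 3.05 RPKM, below Cxcr7 with 18.2 ± 4.70. The exons of 3 Cxcl12 transcripts merge to 8176 bp, so its RPKM is low if the shorter forms dominate.

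**Figure D1:**
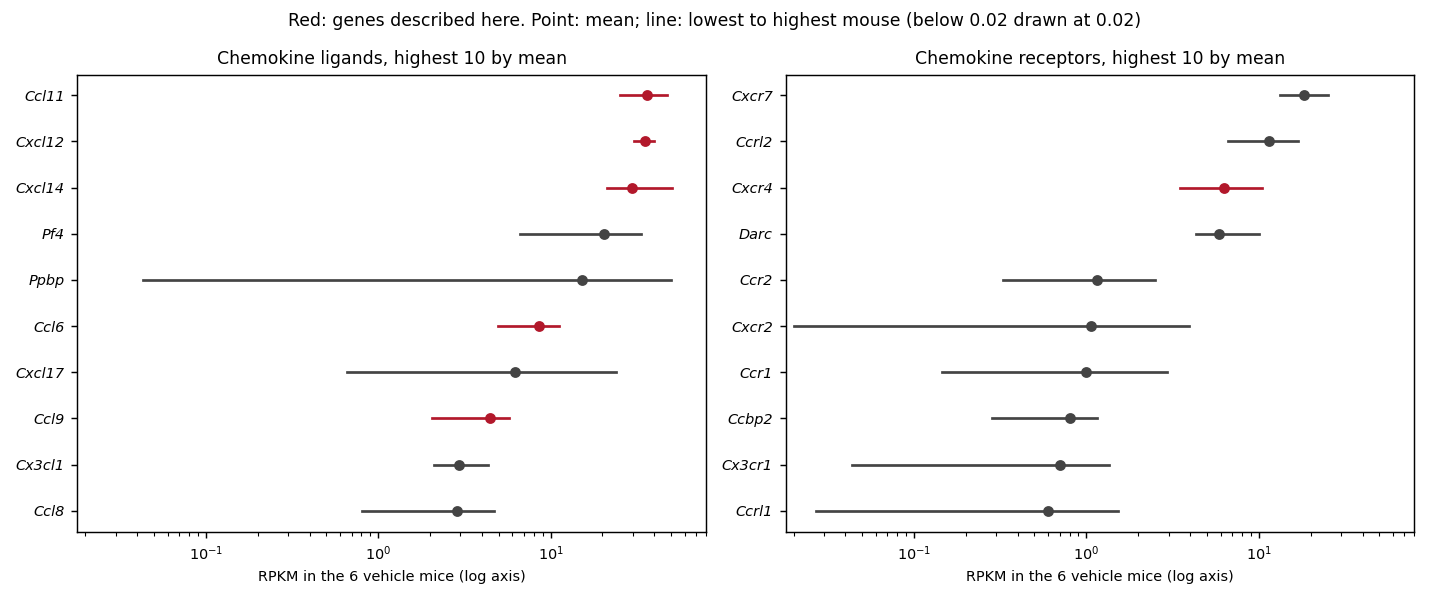
RPKM in the 6 vehicle mice (log axis) of the 10 most abundant chemokine ligands (left) and receptors (right), as the mean (point) and the range from lowest to highest mouse (line), with the 6 genes described here in red. The 5 ligands lie between 4.46 and 36.2 RPKM with short lines, whereas the line of Ppbp runs from 0.0434 to 49.9 RPKM.

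The highest vehicle mouse exceeded the lowest by 1.32-fold for Cxcl12, 1.88-fold for Ccl11, 2.28-fold for Ccl6, 2.38-fold for Cxcl14, 2.78-fold for Ccl9 and 3.0-fold for the receptor Cxcr4. For the 3 other ligands with at least the mean level of Ccl9, the same ratio was 5.06 for Pf4 (platelet factor 4), 36.5 for Cxcl17 (a mucosal and glandular chemokine) and 1151 for Ppbp (a platelet chemokine precursor). A ratio within the range of the 6 genes was not particular to them: it was also found in the less abundant ligands Cx3cl1 (2.04) and Ccl27a (1.80) and in the receptors Cxcr7 (1.91), Darc (2.32) and Ccrl2 (2.55). Vehicle mice of the 2 experiments were not separated: with edgeR's quasi-likelihood test, 0 of the 6 genes differed between Col vehicle and CFA vehicle at a Benjamini-Hochberg adjusted p under 0.05, where 0.0426% of all genes did, and none did at an unadjusted p under 0.05 (2.32% of all genes) or by DESeq2 (0.463%). Together the 5 ligands made up 52.4 to 82.3% of the summed RPKM of all ligands in the vehicle mice. That share was 40.6 to 55.6% at 10U 2d, when the sum over all ligands was 206 to 891 RPKM against 144 to 228 in Col vehicle.

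Cxcl12 had the narrowest range of the 6 genes. Over all 31 mice it ran from 166 to 372 CPM, 2.24-fold, and the SD of its log2 level was above that of 24.1% of the 13506 genes with a mean of at least 1 CPM. The corresponding percentile was 71.6 for Ccl11, 85.3 for Cxcl14, 86.9 for Cxcr4, 92.7 for Ccl9 and 94.0 for Ccl6, whose levels ran over a 30.7-fold range. When the 9 groups were ordered by mean level, every pair of neighbours in the order overlapped for each of the 6 genes.

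**Figure D2:**
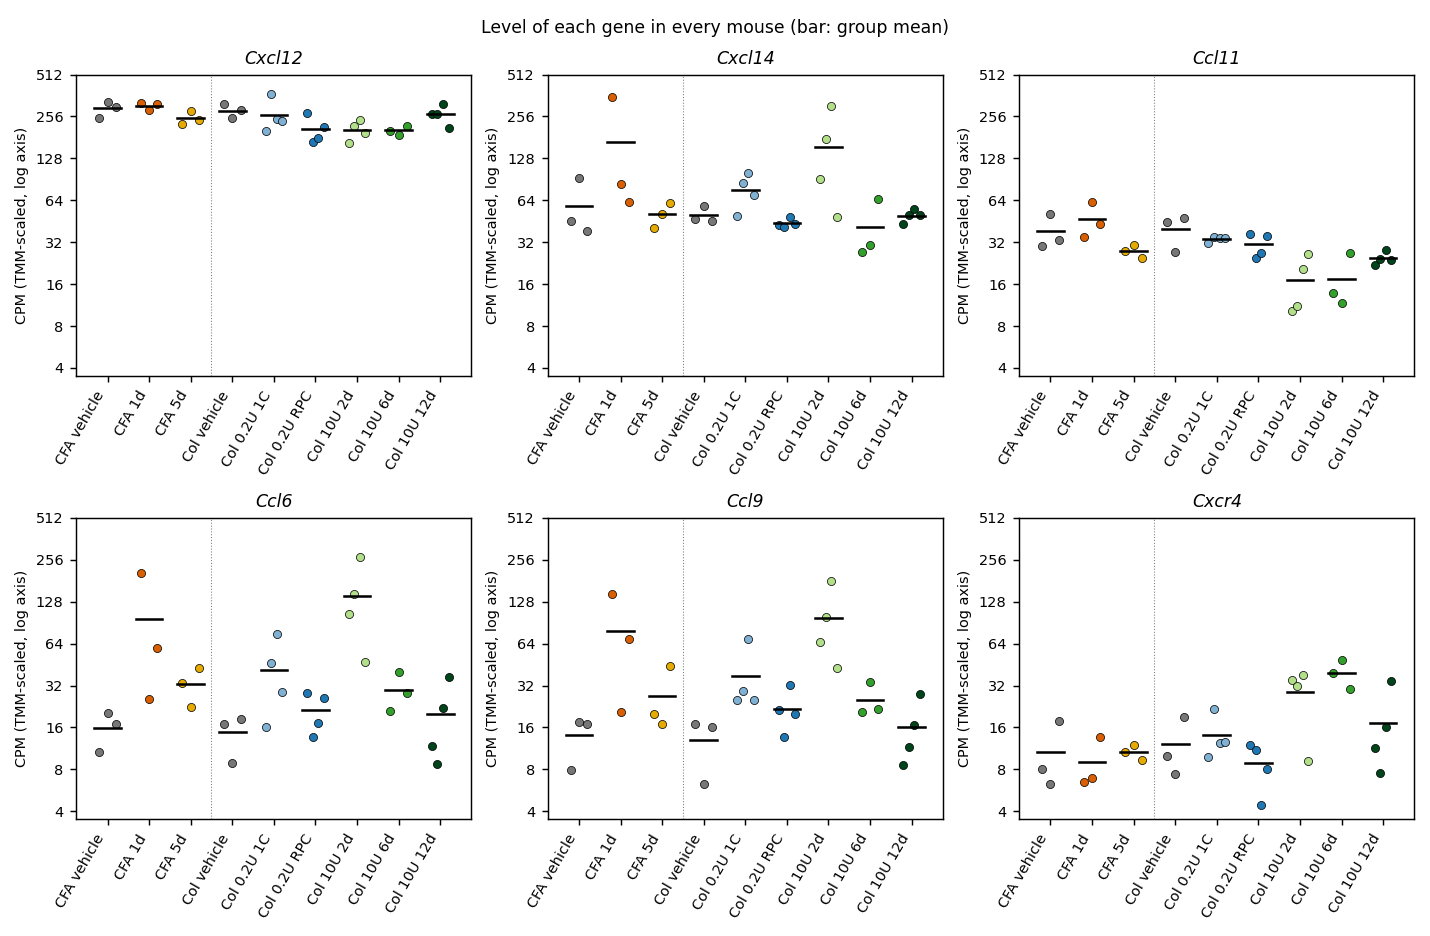
TMM-scaled CPM (log axis, the same in each panel) of the 6 genes in each of the 31 mice (points) with the group mean (bar), CFA experiment left and Col experiment right of the dotted line. Cxcl12 stays between 166 and 372 CPM, Ccl6 and Ccl9 are highest at CFA 1d and 10U 2d, Cxcr4 is highest at 10U 6d, and Ccl11 is lowest at 10U 2d and 6d.

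Against their own vehicle, 2 of the 6 genes were called at 10U 2d and 2 others at 10U 6d, out of 7 such comparisons. Called here means an adjusted p under 0.05 over all genes tested. At 10U 2d Ccl6 and Ccl9 rose, where 2.22% of all genes were called and 1.14% were called higher. At 10U 6d Cxcr4 rose and Ccl11 fell, where 27.3% of all genes were called, so that 2 of 6 is close to the background. Of the 6 genes, 5 had an unadjusted p under 0.05 on each day, where 33.3% and 43.4% of all genes did, and 4 passed by DESeq2, where 23.2% and 35.6% did. The median log2 fold change of the 6 genes was 1.44 at 10U 2d and 0.33 at 10U 6d, beside 0.0224 and 0.00556 over all genes.

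In the other 5 comparisons with vehicle, 0 of the 6 genes passed. At CFA 1d no gene of the whole table was called (0%), 2 of the 6 had an unadjusted p under 0.05 (4.22% of all genes), and 2 passed by DESeq2 (0.411%). At CFA 5d, where 1.11% of all genes were called, 1 of the 6 had an unadjusted p under 0.05 (14% of all genes) and 1 passed by DESeq2 (6.44%). At 0.2U 1C (0% of all genes called) these counts were 3 and 1, beside 12.6% and 3.6% of all genes. At 0.2U RPC (0%) both were 0, beside 13.5% and 3.77% of all genes. At 10U 12d, where 1.23% of all genes were called, they were 1 and 0, beside 17.4% and 6.39% of all genes. In that order the median log2 fold change of the 6 genes was 0.91, -0.04, 0.43, -0.23 and 0.20, and that of all genes lay between -0.0201 and 0.0145.

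**Figure D3:**
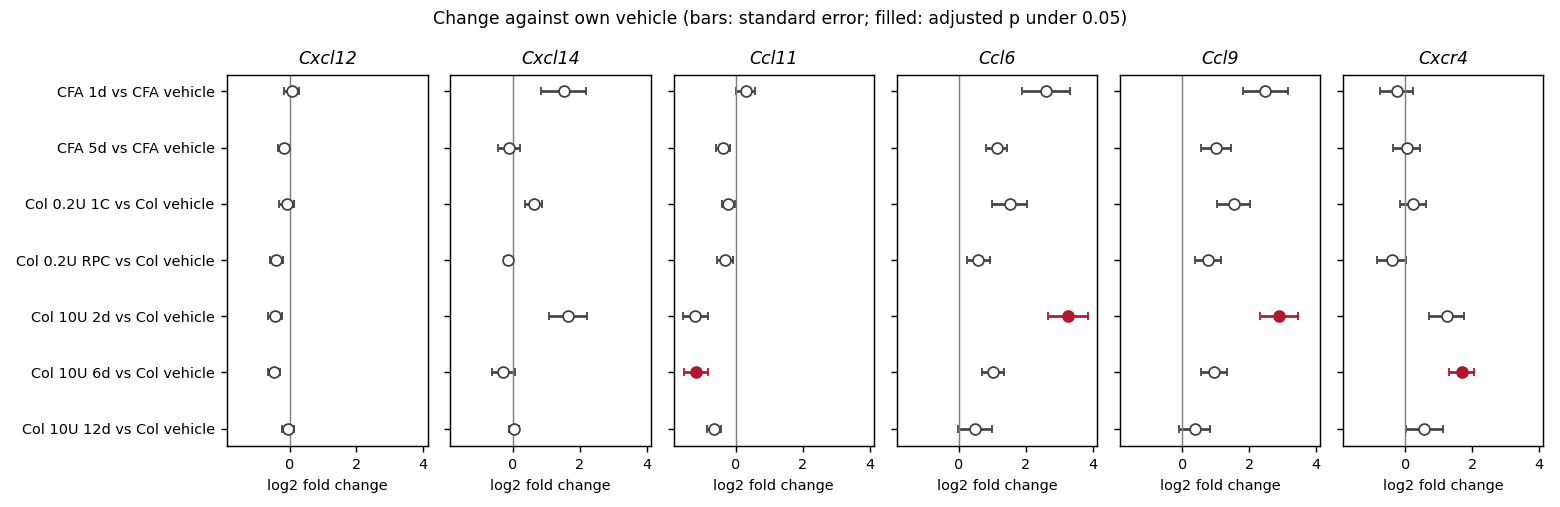
Log2 fold change of each gene against its own vehicle in the 7 comparisons (points) with the standard error (bars), filled red where the adjusted p was under 0.05. The red points are Ccl6 (3.26) and Ccl9 (2.90) at 10U 2d and Cxcr4 (1.68) and Ccl11 (-1.20) at 10U 6d.

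Ccl6 and Ccl9 gave the largest changes. Ccl6 stood at 17.0, 8.87 and 18.3 CPM in the Col vehicle mice and at 104, 145, 267 and 47.1 CPM in the 10U 2d mice. All 4 treated mice lay above all 3 vehicle mice, as 11.7% of all genes did, and mouse 4 was the lowest. The log2 fold change was 3.26 ± 0.60 (SE; edgeR adjusted p = 0.0483). Ccl9 stood at 16.8, 6.26 and 16.2 CPM in Col vehicle and at 66.2, 98.9, 181 and 42.6 CPM at 10U 2d, again with no overlap and the same mouse lowest. Its log2 fold change was 2.90 ± 0.57 (edgeR adjusted p = 0.0483). Both adjusted values lie just under the threshold, and both calls were lost when any one of the other 6 mice was left out, with edgeR adjusted p from 0.0520 to 0.194. Without mouse 4 of the 10U 2d group the log2 fold changes were 3.54 and 3.14 and 5 of the 6 genes were called. The share of all genes called in that fit is not given here, so this count has no background beside it.

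At 10U 6d Ccl6 had 21.0, 39.7 and 28.5 CPM and Ccl9 20.8, 33.8 and 21.5 CPM, all above the 3 vehicle mice, as 24.8% of all genes were. The log2 fold changes of 1.0 ± 0.33 and 0.95 ± 0.38 did not pass (edgeR adjusted p = 0.0562 and 0.0970). Compared directly, 10U 6d was below 10U 2d by 2.25 ± 0.55 on the log2 scale for Ccl6 (a log2 fold change of -2.25; edgeR adjusted p = 0.0456) and by 1.95 ± 0.48 for Ccl9 (-1.95; edgeR adjusted p = 0.0464), where 8.73% of all genes were called and 4.05% were called lower. All 10U 6d mice lay below all 10U 2d mice for both genes, as 11.8% of all genes did; 3 of the 6 genes had an unadjusted p under 0.05 and 3 passed by DESeq2, beside 26.6% and 18.7% of all genes. Leaving out 1 mouse ended both calls for 10U 2d mouse 1 or 2 or any of the 10U 6d mice, with edgeR adjusted p from 0.0742 to 0.186, and with salivary gland and bone marrow scores as covariates they were 0.0561 and 0.0769. By 10U 12d the levels were 11.7, 8.70, 22.0 and 37.1 CPM for Ccl6 and 8.63, 11.7, 16.6 and 28.0 CPM for Ccl9, which overlapped vehicle.

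After CFA the same 2 genes were high in some mice only. Ccl6 had 10.7, 20.2 and 16.8 CPM in CFA vehicle, 205, 25.8 and 59.3 CPM at CFA 1d and 33.3, 22.3 and 43.1 CPM at CFA 5d. Ccl9 had 7.93, 17.4 and 16.8 CPM in CFA vehicle, 147, 20.7 and 69.5 CPM at CFA 1d and 19.9, 16.8 and 44.4 CPM at CFA 5d. At CFA 1d all mice lay above vehicle for both genes, as 2.83% of all genes did, although mouse 2 was only just above it. The log2 fold changes were 2.60 ± 0.72 and 2.48 ± 0.67, with an edgeR adjusted p of 0.924 for both and DESeq2 adjusted p of 0.0138 and 0.0149. Ccl9 was among the genes that the study picked from these CFA 1d libraries, so its direction there is not independent evidence. The study marks Ccl9 as up-regulated at 1d after CFA but not after 10U Col. The edgeR test used here called it at 10U 2d and not at CFA 1d, where it called no gene at all. By DESeq2, the tool the study used, Ccl9 passed in both comparisons (DESeq2 adjusted p = 0.0149 at CFA 1d and 3.36e-06 at 10U 2d). At CFA 5d all mice lay above vehicle for Ccl6, as 14% of all genes did, and the log2 fold changes were 1.13 ± 0.32 for Ccl6 and 1.02 ± 0.45 for Ccl9 (edgeR adjusted p = 0.154 and 0.379).

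With 0.2U Col, the 1C mice had 16.1, 46.5, 74.7 and 28.6 CPM of Ccl6 and 25.1, 29.4, 69.5 and 25.2 CPM of Ccl9. For Ccl9 they did not overlap Col vehicle, as was so for 4.31% of all genes in the higher direction, and mouse 3 stood far above the rest. The log2 fold changes were 1.52 ± 0.52 for Ccl6 and 1.54 ± 0.50 for Ccl9 (edgeR adjusted p = 0.320 and 0.301). The RPC mice had 13.6 to 28.2 CPM of Ccl6 and 13.6 to 32.2 CPM of Ccl9, with log2 fold changes of 0.57 ± 0.34 and 0.77 ± 0.39. The labels do not say which of the 2 groups was collected earlier, and the 2 were not compared.

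**Figure D4:**
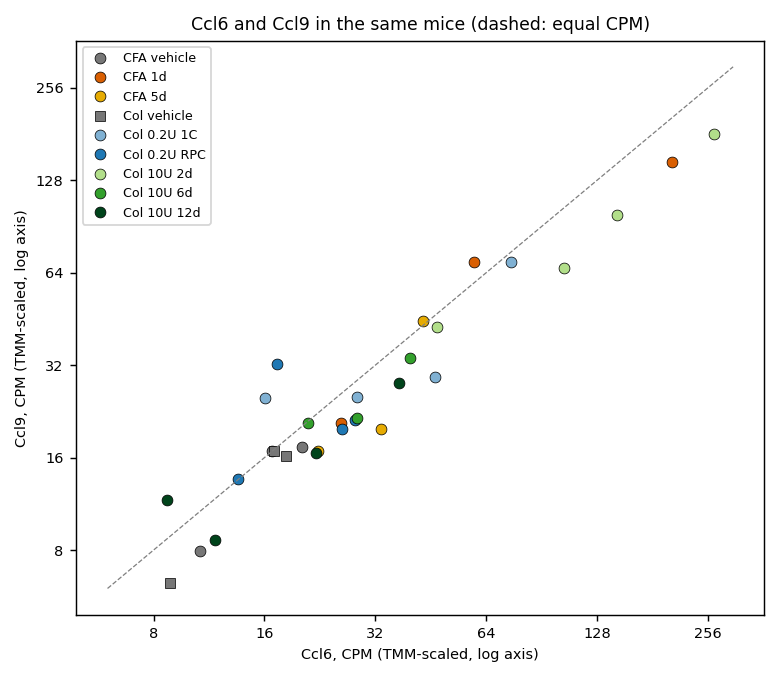
TMM-scaled CPM of Ccl6 (x) and Ccl9 (y) in each of the 31 mice, both on log axes, coloured by group, with a dashed line at equal CPM (not corrected for gene length). The points lie near the line from the lowest vehicle mouse (8.87 and 6.26 CPM) to the highest 10U 2d mouse (267 and 181 CPM).

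The ratio of the 2 neighbouring genes varied less than either gene did. Ccl6 exceeded Ccl9 in RPKM by a median of 2.11-fold over the 31 mice, with a range of 0.91 to 2.84, although each gene varied over 28.9-fold or more. The lowest ratio came from an RPC mouse, and in 10U 2d the ratio was 1.87 to 2.66 against 1.71 to 2.40 in Col vehicle. Their receptor gene Ccr1 had 2.19, 0.522 and 8.29 CPM in Col vehicle and 22.4, 27.4, 47.5 and 3.79 CPM at 10U 2d, where mouse 4 was again the lowest and lay within the vehicle range. It passed the edgeR test in none of the 12 comparisons, although no gene at all was called at CFA 1d, 0.2U 1C and 0.2U RPC. The study lists Ccr1 as up-regulated at 1d after CFA.

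Macrophage and monocyte markers were also higher on these days. The mean log2(CPM + 0.5) of 10 markers was 2.58 to 4.07 in Col vehicle, 4.74 to 6.07 at 10U 2d, 5.78 to 6.67 at 10U 6d and 2.67 to 5.47 at 10U 12d, and all 10 had counts in every group. Their summed level was 103 to 423 CPM in Col vehicle, 517 to 1281 CPM at 10U 2d and 1240 to 2443 CPM at 10U 6d. Of the 10, 1 was called higher at 10U 2d and 10 at 10U 6d, beside 1.14% and 14% of all genes. Between 2d and 6d, 4 of the 10 were called higher at 6d and 0 lower, where 8.73% of all genes were called. The marker means of the 2 days overlapped, however. In CFA vehicle the mean was 1.92 to 4.06, at CFA 1d it was 3.33 to 5.31 with mouse 2 the lowest, and at CFA 5d it was 3.74 to 4.72. Neutrophil markers had a mean of 0.42 to 5.92 in Col vehicle, 2.77 to 4.85 at 10U 2d and 1.20 to 1.42 at 10U 6d. Of these markers, 5 of 7 were called lower at 6d than at 2d, beside 4.05% of all genes. Bone marrow progenitor and erythroid markers also had lower means, -0.59 to -0.45 at 6d against 0.49 to 2.35 at 2d. Col vehicle mouse 3 had the highest mean of its group for both lists, 5.92 and 3.61. The part of macrophages, neutrophils or bone marrow in the changes of Ccl6, Ccl9 and Cxcr4 was not tested.

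**Figure D5:**
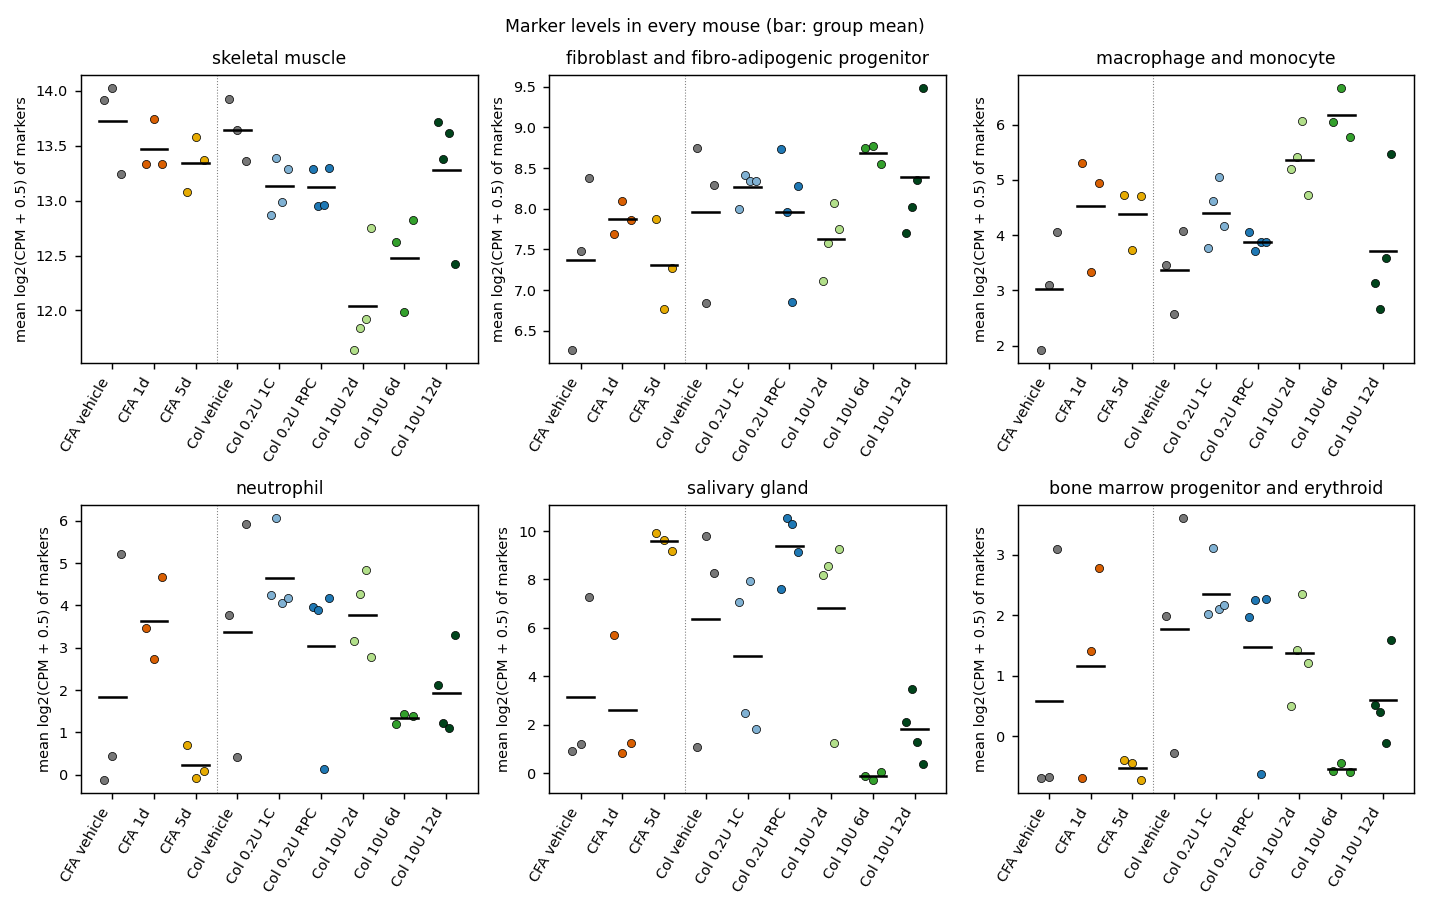
Mean log2(CPM + 0.5) of the markers of 6 cell types or tissues in each mouse (points) with the group mean (bar); each panel has its own y axis. Macrophage markers are at 5.78 to 6.67 at 10U 6d against 2.58 to 4.07 in Col vehicle, skeletal muscle markers are lower at 10U 2d (11.6 to 12.8) than in Col vehicle (13.4 to 13.9), and salivary gland markers are at -0.30 to 0.03 at 10U 6d.

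Cxcr4 rose after 10U Col and had its highest mean at 6d. Col vehicle mice had 9.92, 7.37 and 19.0 CPM, and the mice at 10U 6d had 39.0, 48.9 and 30.0 CPM, all of them higher, as 24.8% of all genes were. Of all genes, 14% were called higher there. The log2 fold change at 6d was 1.68 ± 0.37 (edgeR adjusted p = 0.0185). The call was lost without 10U 6d mouse 1 or 2 or Col vehicle mouse 1 (edgeR adjusted p = 0.0643, 0.0750 and 0.0574). With salivary gland and bone marrow scores as covariates it was 2.57 ± 0.54 and passed the test. Both scores lay wholly below Col vehicle at 10U 6d, however. Those of salivary gland were -0.30 to 0.03 against 1.07 to 9.80, and those of bone marrow -0.59 to -0.45 against -0.28 to 3.61. That fit therefore extrapolates and cannot separate the scores from the treatment here. At 10U 2d the levels were 35.0, 32, 38.0 and 9.15 CPM, so that 3 mice were above vehicle and mouse 4 within it, with a log2 fold change of 1.24 ± 0.52 (edgeR adjusted p = 0.141, and 0.0157 without mouse 4). At 10U 12d they were 11.3, 7.49, 16.2 and 34.3 CPM, where mouse 4 alone lay above vehicle. That mouse also had the highest macrophage marker mean of its group, 5.47. The difference between 12d and 6d was -1.16 ± 0.47 (edgeR adjusted p = 0.0946, and 0.00157 without 12d mouse 4); 26.4% of all genes and 0 of the 6 were called there, 2 of the 6 having an unadjusted p under 0.05 and 2 passing by DESeq2, beside 44% and 37.6% of all genes. After CFA, Cxcr4 had 6.49 to 13.7 CPM at 1d and 9.27 to 12.0 CPM at 5d, within the 6.33 to 17.7 CPM of CFA vehicle.

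The ligand of Cxcr4 had the opposite sign on these days. Cxcl12 stood at 313, 249 and 284 CPM in Col vehicle, at 166, 220, 240 and 193 CPM at 10U 2d and at 202, 188 and 220 CPM at 10U 6d. Neither day overlapped vehicle, as was so for 12.5% and 22.5% of all genes in the lower direction. The log2 fold changes of -0.44 ± 0.20 and -0.47 ± 0.18 did not pass (edgeR adjusted p = 0.167 and 0.0876). At 12d Cxcl12 had 268, 265, 313 and 213 CPM, a log2 fold change of -0.04 ± 0.18 against vehicle. CFA vehicle mice had 249, 327 and 302 CPM, against 318, 287 and 314 CPM at CFA 1d and 226, 281 and 241 CPM at CFA 5d. The 0.2U groups had 200 to 372 CPM (1C) and 167 to 269 CPM (RPC), the latter with a log2 fold change of -0.40 ± 0.19 (edgeR adjusted p = 0.410).

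Cxcr7, the scavenger of CXCL12, fell at 10U 6d. It had 84.3, 56.0 and 56.7 CPM in Col vehicle and 24.9, 18.2 and 25.7 CPM at 10U 6d, with a log2 fold change of -1.52 ± 0.22 (edgeR adjusted p = 0.00564). It was also below 10U 2d by a log2 fold change of -1.18 ± 0.21 (edgeR adjusted p = 0.0196) and 12d was above 6d by 1.01 ± 0.21 (edgeR adjusted p = 0.0186). The level of Cxcr4 in RPKM was above that of Cxcr7 in all 3 mice at 10U 6d, in mice 1, 2 and 3 at 10U 2d (19.3, 17.7 and 21.0 against 15.7, 13.8 and 20.3) and in mouse 4 at 12d, whereas Cxcr7 was above Cxcr4 in all 6 vehicle mice.

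Ccl11 fell after 10U Col. Col vehicle mice had 44.7, 27.4 and 48.0 CPM, 10U 2d mice 10.2, 11.1, 20.5 and 26.2 CPM, and 10U 6d mice 13.8, 11.7 and 26.9 CPM. All 7 treated mice lay below the lowest vehicle mouse, the closest at 26.9 against 27.4 CPM, beside 12.5% and 22.5% of all genes at 2d and 6d, although the 2d mice overlapped vehicle when only these 2 groups were scaled together. At 6d the log2 fold change was -1.20 ± 0.36 (edgeR adjusted p = 0.0440), where 13.3% of all genes were called lower, and the call was lost without 10U 6d mouse 1 or 2 or Col vehicle mouse 1 or 3 (edgeR adjusted p = 0.147, 0.151, 0.105 and 0.0752). At 2d it was of the same size, -1.21 ± 0.38, but did not pass (edgeR adjusted p = 0.0814, and 0.0134 without mouse 4), and the 2 days differed by 0.01 ± 0.43. At 12d the levels were 21.9, 24.3, 28.1 and 23.7 CPM, with a log2 fold change of -0.66 ± 0.20 (edgeR adjusted p = 0.176).

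Ccl11 in the other groups stayed nearer to vehicle. CFA vehicle mice had 30.3, 51.4 and 33 CPM, CFA 1d mice 34.9, 62.1 and 43.4 CPM and CFA 5d mice 27.8, 30.5 and 24.5 CPM. CFA 5d lay wholly below CFA 1d, as 10.5% of all genes did, with a log2 fold change of -0.70 ± 0.23 (edgeR adjusted p = 0.140). In that comparison 0 of the 6 genes and 5.84% of all genes were called, 2 of the 6 having an unadjusted p under 0.05 and 1 passing by DESeq2, beside 19.7% and 10.6% of all genes. The 0.2U groups had 31.4 to 34.9 CPM (1C) and 24.8 to 36.8 CPM (RPC). The 6 eosinophil markers stayed near the floor in every group, with a mean log2(CPM + 0.5) of -0.92 to 0.78, and Epx had 0 counts in all mice of CFA 5d, 10U 6d and 10U 12d. Ccr3, the CCL11 receptor, was at 0 to 1.45 CPM. Dpp4 fell at 10U 6d, from 12.1, 19.3 and 22.9 CPM in Col vehicle to 6.38, 5.62 and 9.69 CPM, a log2 fold change of -1.33 ± 0.32 (edgeR adjusted p = 0.0239), though its gene overlaps Gm13561. The salivary gland marker means of these vehicle mice were 1.07, 9.80 and 8.27, against -0.30 to 0.03 at 10U 6d. The part of salivary gland tissue in the change of Dpp4 was not tested.

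Cxcl14 was uneven between mice of the same group. CFA vehicle mice had 45.2, 92.0 and 38.7 CPM, and CFA 1d mice had 355, 83.8 and 62.2 CPM, so that a single mouse set the group mean of 167 ± 163 (SD, n = 3). The log2 fold change was 1.52 ± 0.68 (edgeR adjusted p = 0.924) and 0.33 without that mouse. At CFA 5d the levels were 40.2, 51.3 and 60.8 CPM. Col vehicle mice had 46.8, 57.9 and 45.1 CPM, and 10U 2d mice had 90.4, 176, 305 and 48.2 CPM, where 3 mice were above vehicle and mouse 4 was within it. The log2 fold change was 1.65 ± 0.56 (edgeR adjusted p = 0.0949, and 0.0112 without mouse 4). At 10U 6d the mice had 27.2, 30.6 and 65.6 CPM, 2 of them below vehicle and 1 above it. At 10U 12d all 4 were at 43.3 to 55.4 CPM. The 1C mice had 49.0 to 101 CPM, with a log2 fold change of 0.62 ± 0.26 (edgeR adjusted p = 0.382), and the RPC mice 41.2 to 48.3 CPM.

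The same 2 mice were highest for Cxcl14, Ccl6 and Ccl9 in their groups: CFA 1d mouse 1 and 10U 2d mouse 3. In 10U 2d, mouse 4 was the lowest of its group for Cxcl14, Ccl6, Ccl9 and Cxcr4 and the highest for Ccl11. It also had the highest skeletal muscle marker mean of its group, 12.8 against 11.6 to 11.9 in the other 3, and the lowest macrophage mean, 4.74 against 5.21 to 6.07. Its salivary gland mean was the highest of the group, 9.24, whereas mouse 3 had 1.23 and mice 1 and 2 had 8.19 and 8.57. Skeletal muscle markers were lower at 10U 2d and 6d (11.6 to 12.8 and 12.0 to 12.8) than in Col vehicle (13.4 to 13.9), with 0 and 2 of 8 called lower. Fibroblast markers were 7.12 to 8.07 at 10U 2d and 8.56 to 8.77 at 6d against 6.84 to 8.74 in Col vehicle, with 0 and 1 of 9 called higher, and endothelial markers were 6.25 to 6.69 and 6.20 to 6.51 against 6.76 to 7.11, with 1 and 2 of 6 called lower. Over all genes, 2.22% were called in either direction at 10U 2d, and 14% were called higher and 13.3% lower at 10U 6d. All markers of these 3 lists had counts in every group, and their part in the changes of Cxcl12, Ccl11, Cxcl14 and Cxcr4 was not tested.

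The early responses to the 2 agents were compared as the change at CFA 1d minus the change at 10U 2d. None of the 6 genes passed, where 0.0946% of all genes were called, and 1 had an unadjusted p under 0.05 and none passed by DESeq2, beside 6.83% and 0.733% of all genes. With the replicate number as a block Cxcr4 alone passed (-1.87, edgeR adjusted p = 0.0464). The difference was largest for Ccl11, 1.52 ± 0.52 (unadjusted p = 0.0121, edgeR adjusted p = 0.568), from a log2 fold change of 0.29 after CFA and -1.21 after 10U Col. For Cxcr4 it was -1.48 ± 0.76 and for Cxcl12 0.52 ± 0.27. For Ccl6, Ccl9 and Cxcl14 it was -0.65 ± 0.95, -0.40 ± 0.91 and -0.13 ± 0.95. With an SE of this size, even differences well above 1 log2 unit could not be told from 0 with these mice.

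Other genes of the chemokine system were called at 10U 2d, 10U 6d and CFA 5d among the comparisons with vehicle, where 2.22%, 27.3% and 1.11% of all genes were. Of 36 other ligands, 22 were tested at 10U 2d, with 4 called higher (Ccl2, Ccl7 and Ccl12, which attract monocytes through CCR2, and Cxcl5, which attracts neutrophils) and 0 lower, and a median log2 fold change of 2.20. At 10U 6d 19 were tested, with 10 called higher, among them Ccl2, Ccl8 and the CXCR3 ligands Cxcl9 and Cxcl10, and 2 lower (Ccl24, another eotaxin, and Ppbp). Of 22 other receptors, 17 were tested at 10U 6d, with 5 called higher, among them Ccr2 and Cx3cr1, and 2 lower (Cxcr7 and Ccrl2). Ccr2 had 4.55, 2.35 and 14.3 CPM in Col vehicle and 32.7, 42.8 and 33.4 CPM at 6d, a log2 fold change of 2.33 ± 0.59 (edgeR adjusted p = 0.0269). Of the 50-base windows of Ccr2, 1.75% also occur in transcripts of other genes. At CFA 5d 2 of 19 ligands were called higher (Ccl3 and Cxcl17), where 1.06% of all genes were, and 0 of 10 receptors, and at CFA 1d, 0.2U 1C, 0.2U RPC and 10U 12d no other ligand or receptor was called.

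Between 10U 2d and 6d, Pf4, the fourth ligand in vehicle MM, was not called. Ppbp and Cxcl17 were lower at 6d by log2 fold changes of -5.69 ± 0.81 and -3.27 ± 0.81 (edgeR adjusted p = 0.00964 and 0.0475). In that comparison 8 of 8 salivary gland markers and 5 of 6 bone marrow markers tested were also called lower, beside 4.05% of all genes. Pf4 was lower at 12d than at 6d (-1.62 ± 0.39; edgeR adjusted p = 0.0255). Cxcl17 was higher at CFA 5d than in vehicle (2.90 ± 0.35; edgeR adjusted p = 0.0317), the group with salivary gland markers at 9.16 to 9.92.

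The genes whose level followed each of the 6 most closely over the 31 mice were described by Pearson correlation of log2(CPM + 0.5) among the 13506 genes with a mean of at least 1 CPM. The mice share groups, tissue composition and library preparation, so these values describe likeness only. Most depended on the groups: of the pairings named next, 15 left the first 3 places after the group means were removed and 3 stayed. By Spearman correlation 8 left them and 10 stayed. For Ccl6 the closest gene was Ccl9 (r = 0.954, and 0.884 after the group means were removed), followed by Dok2 (0.936) and Cfp (properdin, 0.929). For Ccl9 they were Ccl6, Dok2 (0.949) and Ccl2 (0.914). For Ccl11 they were Gsn (gelsolin, 0.907), Pcolce2 (0.895) and Pdzd2 (0.883), for Cxcl12 Serpine2 (0.850), Flot2 (0.812) and Pcp4l1 (0.793), for Cxcl14 Clu (clusterin, 0.864), Cltb (0.857) and Pcdh1 (0.827), and for Cxcr4 Plekhh2 (0.898), Tfpi (0.894) and Dbn1 (0.892). Among the 6 genes themselves, Cxcl14 followed Ccl6 (r = 0.775) and Ccl11 followed Cxcl12 (0.635), whereas Cxcr4 and Ccl11 ran in opposite directions (-0.627, and -0.209 after the group means were removed).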

How the data were processed

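RNA was sequenced from MM of 31 mice, 1 library per mouse, as stranded poly(A) libraries read single-end over 50 bases. The submitters' processing notes name bcl2fastq, TopHat2, HTSeq and mm9, with no versions, and the annotation and strand setting of the counting are not given in the sources used here. The deposited tables hold raw counts of reads per gene symbol, which the authors neither normalized nor filtered, and the 5 closing lines of unassigned reads were kept out of library sizes and tests. The 6 genes and all gene lists were chosen with earlier results of these data known.

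Each comparison had a quasi-likelihood fit of its own in edgeR 4.0.16 (R 4.3.3) after TMM scaling. A gene entered it with 10 or more counts in 3 or more of its libraries, and p-values were adjusted over every gene that entered (Benjamini-Hochberg). The SE is the size of the log2 fold change over the square root of F. Only samples of the groups compared entered each fit. The p-values set differences between groups against the spread between mice within groups. Nothing in the labels says that mice of a group were housed or injected apart. An effect shared by all mice of a group could therefore not be told from that of the treatment. CPM are TMM-scaled, and RPKM used merged exons of GENCODE vM1, which matched 21627 of 22609 symbols directly. On counts simulated for CFA 1d, the test recovered 159 of 200 changed genes among 13676, with 9 of 168 calls wrong, and for 10U 6d 155 of 200 among 13646, with 14 of 169 wrong. Of 465 pairs of libraries, 0 were identical.

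Beside the 6 genes, the text names their receptors and processing gene, the 3 genes most like each, other ligands at or above the level of Ccl9 in vehicle mice, and list members counted as called. Mice with the same replicate number are different animals. For CFA 1d with CFA vehicle, same-numbered mice deviated together (r = 0.165, 0.256 and 0.592), as they did for Col vehicle with CFA vehicle (0.205, 0.115 and 0.677). Elsewhere at least 1 pair was at 0.1 or below. Alternatives were DESeq2 1.42.0, its size factors, no low-count filter, a fold over 2 with RPKM over 1, 1 fit of all libraries, a replicate block, vehicle mice of both experiments, leaving out each mouse and, chosen after seeing the data, marker scores as covariates. Results of 1 receptor gene are not reported here.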

Additional observations from a re-analysis of the deposited data

Results flagged for a closer look

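Within groups of 4 mice, the highest and lowest level of each of the 6 genes was compared with the others by Dixon's gap ratio. In 24 sets of 4 values, 1 value stood apart: Ccl9 in mouse 3 of 0.2U 1C, at 69.5 CPM against 25.1 to 29.4 CPM in the other 3. Chance alone flags about 1 in 20 such sets. Ccl6 was also highest in that mouse, at 74.7 CPM, as was the macrophage marker mean of the group, 5.05 against 3.77 to 4.61.

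The share of reads that fell on more than 1 gene, which none of the comparisons used, had a median of 0.815% in the 11 libraries of 10U Col and of 0.208% in the other 20, and the ranges did not overlap. Its part in the differences between 10U Col and vehicle was not tested.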

How the results depend on the processing

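The number of the 6 genes past the threshold depended on the tool and on single mice. Shares of all genes called are given above for the main fits and DESeq2 only. The counts of the other alternatives have no such background beside them. It was unchanged in all comparisons with DESeq2's size factors in edgeR, without the low-count filter and with a fold over 2 and an RPKM over 1 required. By DESeq2 it was 2 at CFA 1d, 1 at CFA 5d, 1 at 0.2U 1C, 4 at 10U 2d, 4 at 10U 6d, 1 for CFA 5d against 1d, 3 for 10U 6d against 2d and 2 for 10U 12d against 6d. One fit of all libraries gave 5 at 10U 2d and 3 for 10U 6d against 2d, where Cxcl14 passed as well. The replicate block gave 5 at 10U 2d, 1 at 10U 6d (Cxcr4 lost its call, edgeR adjusted p = 0.0550), 3 for 10U 6d against 2d, 4 for 10U 12d against 6d and 1 for the early CFA change minus the early 10U change (Cxcr4, -1.87, edgeR adjusted p = 0.0464), and moved no other count. The labels give same-numbered mice no more than a shared number in any of these comparisons, though those of CFA 1d and CFA vehicle deviated together. Salivary gland and bone marrow scores as covariates gave 5 at 10U 2d, 1 for 10U 6d against 2d and 1 for 12d against 6d, and vehicle mice of both experiments gave 6 at 10U 2d and 5 at 10U 6d. Both scores at 10U 6d lay wholly below Col vehicle, 10U 2d and 10U 12d, so the fit with covariates extrapolates in comparisons with 10U 6d. Leaving out each mouse in turn gave 0 to 5 at 10U 2d, 0 to 3 at 10U 6d, 0 to 3 for 6d against 2d, 0 to 4 for 12d against 6d, 0 to 1 at CFA 5d, 0 to 2 for CFA 5d against 1d and 0 elsewhere. The causes were not tested.

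Changes of sign came only where the reported log2 fold change was at most 0.56 in size and not called. Cxcr4 at CFA 5d was -0.0053 in the fit of all libraries and -0.064 with both vehicle groups. With the covariates Cxcl12 at CFA 5d was 0.012, Cxcl14 at 10U 12d -0.38 (-0.083 with both vehicle groups), Ccl11 for 10U 6d against 2d -0.12, and between vehicles Cxcl14 was 0.19 and Cxcr4 -0.17. With the replicate block, Cxcl12 and Ccl6 at 10U 12d were 0.037 and -0.066. Leaving out each mouse gave these log2 ranges: at CFA 1d -0.044 to 0.15 for Cxcl12 and -0.69 to 0.37 for Cxcr4; at CFA 5d -0.32 to 0.32 for Cxcl14 and -0.24 to 0.68 for Cxcr4. At 0.2U 1C they were -0.26 to 0.048 for Cxcl12 and -0.019 to 0.73 for Cxcr4, and at RPC -0.67 to 0.12 for Cxcr4. At 10U 12d they were -0.13 to 0.025 for Cxcl12, -0.042 to 0.16 for Cxcl14, -0.043 to 1.10 for Cxcr4, -0.043 to 0.72 for Ccl6 and -0.075 to 0.59 for Ccl9, and for 10U 6d against 2d -0.42 to 0.32 for Ccl11 and -0.13 to 0.070 for Cxcl12. Between vehicles they were -0.059 to 0.34 for Ccl11, -0.13 to 0.048 for Cxcl12, -0.39 to 0.26 for Cxcl14, -0.31 to 0.82 for Cxcr4, -0.30 to 0.17 for Ccl6 and -0.36 to 0.25 for Ccl9, and for CFA 1d minus 10U 2d -1.27 to 0.47 for Cxcl14 and -1.19 to 0.092 for Ccl9. Each of the 6 genes had at least 81 counts in every library.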
